A study of Mus musculus with 6 samples.

Results

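The negative feedback genes of the RAS to ERK cascade examined here were 10 genes in 3 families, the MAP kinase phosphatases *Dusp1*, *Dusp2*, *Dusp4*, *Dusp5*, *Dusp6* and *Dusp10*, the Sprouty genes *Spry1* and *Spry2*, and the SPRED genes *Spred1* and *Spred2*. They were taken by gene symbol from a table of 54532 mouse genes, where all 10 were present, and 9 of them passed the filter for testing, a mean of at least 1 FPKM (fragments per kilobase of transcript, scaled to the depth of the library) over all libraries. The measurement was RNA-seq of LSK cells (lineage negative, Sca-1 positive, c-Kit positive), the bone marrow fraction that holds the hematopoietic stem cells and the multipotent progenitors, from C57BL/6 mice. The question was which transcripts change in LSK cells once *Myh9*, the gene of the non-muscle myosin IIA heavy chain, is deleted.

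The deleted group (cKO, n = 3 libraries) was Myh9fl/fl;Mx1-cre, and the control group (CTRL, n = 3 libraries) was littermate Myh9fl/fl;no cre. Mice of both genotypes were injected with poly I:C, a synthetic double-stranded RNA that induces interferon, at 5 mg/kg, 2 doses according to the sample descriptions, and 100000 LSK cells per library were sorted 4 days after the first dose. The treatment began at 5 to 6 weeks of age. The *Mx1* promoter that drives Cre responds to interferon and is not limited to LSK cells, and the Cre transgene was carried by the cKO mice alone, so that its presence and the loss of *Myh9* cannot be told apart. How many mice gave each cell set is not stated in the sources used here, so the p-values below measure the spread between libraries.

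Libraries held 17571544 to 19894562 reads on genes. *Myh9* itself was at 23.0, 22.6 and 22.0 FPKM in the CTRL libraries and 18.4, 20.0 and 17.7 FPKM in the cKO libraries. The change was -0.26 on the log2(FPKM + 1) scale, on which all changes below are given (SE 0.049, adjusted p = 0.00642 by limma), and -0.16 once the trend with gene length was removed. The cKO level was thus 82.9% of CTRL, and a gene-level table does not show the deleted exon, so the extent of deletion was not measured here and the groups are called by their labels. *Kit*, which defines the gate together with the Sca-1 gene *Ly6a*, was at 23.9 FPKM in CTRL and 21.5 FPKM in cKO. These 2 gate genes summed to 117 to 121 FPKM in CTRL and 107 to 113 FPKM in cKO (1 of 2 tested was lower). Marker genes of other cells moved with genotype: the summed FPKM of 10 neutrophil and monocyte genes was 9011 to 9050 in CTRL and 5066 to 5158 in cKO (8 of 9 tested were lower), and that of 8 erythroid genes was 7.51 to 8.75 and 40.5 to 53.5 (4 of 4 tested were higher). Megakaryocyte genes summed to 63.4 to 68.1 and 136 to 142 FPKM (4 of 4 tested were higher, with *Gp1bb* at 0 throughout), and mast cell and basophil genes to 90.3 to 102 and 149 to 158 FPKM (5 of 6 tested were higher). B and plasma cell genes summed to 65.2 to 69.5 and 102 to 107 FPKM (3 of 4 tested were higher, *Pax5* at 0 in every CTRL library), and T and NK cell genes to 365 to 376 and 326 to 330 FPKM (3 of 4 tested were higher and 1 lower). The lineage antigens *Cd3e*, *Cd4*, *Cd8a*, *Itgam* and *Ly6g* together stayed at 1.77 to 2.60 FPKM in CTRL and 2.46 to 2.81 FPKM in cKO. The part of these marker shifts in the results below was not tested, and in bulk RNA fewer cells of a type and less RNA per cell cannot be told apart.

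Growth factor receptors of progenitors, such as Kit and Flt3, signal through RAS, RAF and MEK to the kinase ERK, and the related stress cascades end in p38 and JNK. MAP kinase phosphatases remove the phosphates from the activation loop of these kinases, Sprouty proteins interfere with signalling between receptor and RAF, and SPRED proteins bring the RAS GTPase-activating protein neurofibromin to the membrane. Many of these inhibitors are themselves transcribed in response to ERK activity, so that the cascade limits its own output.

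Among the 10 genes, 5 of the 9 tested had lower levels in the cKO libraries, where 20.6% of all 11552 tested genes were lower, and 0 were higher, where 19.9% of all were. The genes that fell were *Dusp1*, *Dusp2*, *Dusp5*, *Dusp10* and *Spry1*, of which *Dusp10* passed the filter only through its CTRL level. *Dusp6*, *Spry2*, *Spred1* and *Spred2* did not pass the limma test at an adjusted p of 0.05, and *Dusp4* was too low to enter it. At an unadjusted p under 0.05 the counts were also 5 lower and 0 higher, as they were with voom on reads recovered from the FPKM values. The median change of the 9 was -0.40, beside -0.0096 over all tested genes. In 6 of the 9 every cKO library lay below every CTRL library, an arrangement seen in 28.5% of all tested genes, and in 0 of the 9 did every cKO library lie above, which 25.5% of all did.

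**Figure D1:**
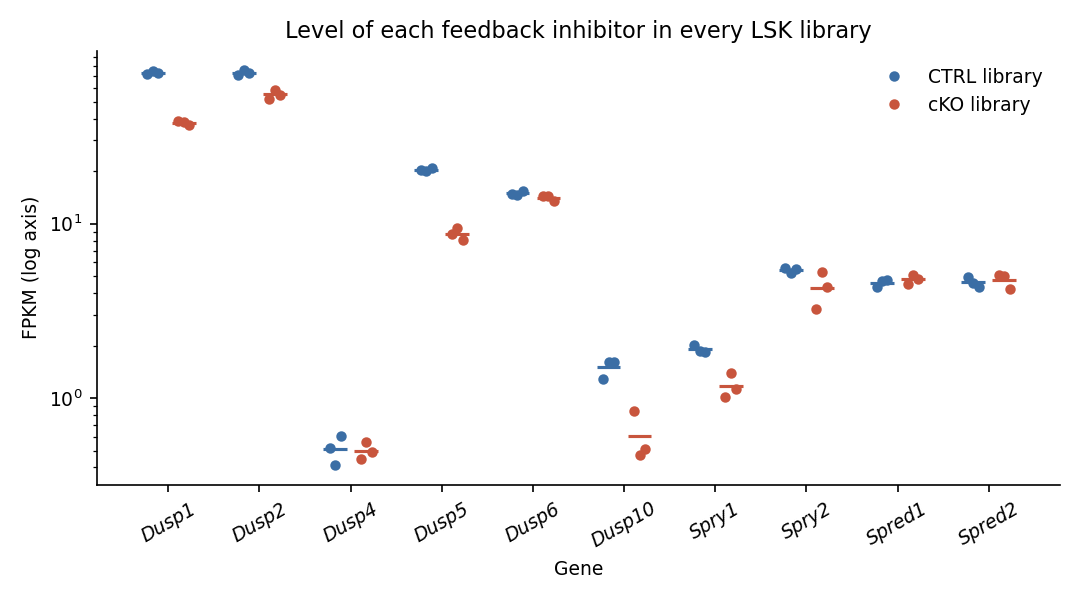
FPKM of the 10 feedback genes in each library on a log axis, with CTRL and cKO libraries as separate points (n = 3 each) and the group means as lines. *Dusp1*, *Dusp2*, *Dusp5*, *Dusp10* and *Spry1* lay lower in every cKO library, as did *Dusp6* by a small gap, whereas the points of *Dusp4*, *Spry2*, *Spred1* and *Spred2* overlapped between the groups.

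To show the regulatory sequence of the most abundant phosphatase genes, with the ones that fell beside *Dusp6*, which did not pass the test, RefSeq promoter windows are printed for 4 of the genes. Each runs from 250 bases before to 50 bases after the annotated start site in GRCm38.p6, 5′ to 3′ on the strand of the gene. Capitals mark matches, on either strand, to TGACGTCA (the cyclic AMP response element, CRE), to TGACG (its shorter half-site, which also lies inside every full CRE) and to the CArG box, the motif of serum response factor.
Dusp1, chr17:26508423-26508722, minus strand: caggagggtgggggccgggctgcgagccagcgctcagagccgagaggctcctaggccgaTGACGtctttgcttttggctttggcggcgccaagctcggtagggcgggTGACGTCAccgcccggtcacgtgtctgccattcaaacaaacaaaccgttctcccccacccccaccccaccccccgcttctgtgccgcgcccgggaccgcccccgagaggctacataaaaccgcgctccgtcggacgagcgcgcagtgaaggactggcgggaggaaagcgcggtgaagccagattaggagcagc
Dusp2, chr2:127335909-127336208, plus strand: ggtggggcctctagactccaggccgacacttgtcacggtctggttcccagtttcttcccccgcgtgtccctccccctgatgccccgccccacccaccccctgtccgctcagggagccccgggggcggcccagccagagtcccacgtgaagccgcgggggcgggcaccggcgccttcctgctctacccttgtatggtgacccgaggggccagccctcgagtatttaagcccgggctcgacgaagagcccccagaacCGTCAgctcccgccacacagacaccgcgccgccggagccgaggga
Dusp5, chr19:53528895-53529194, plus strand: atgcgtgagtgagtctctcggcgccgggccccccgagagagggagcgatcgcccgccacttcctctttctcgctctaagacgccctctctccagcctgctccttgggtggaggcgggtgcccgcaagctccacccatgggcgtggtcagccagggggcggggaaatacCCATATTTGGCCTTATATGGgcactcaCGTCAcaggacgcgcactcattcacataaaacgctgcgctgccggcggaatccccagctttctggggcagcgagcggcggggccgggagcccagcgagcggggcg
Dusp6, chr10:99262981-99263280, plus strand: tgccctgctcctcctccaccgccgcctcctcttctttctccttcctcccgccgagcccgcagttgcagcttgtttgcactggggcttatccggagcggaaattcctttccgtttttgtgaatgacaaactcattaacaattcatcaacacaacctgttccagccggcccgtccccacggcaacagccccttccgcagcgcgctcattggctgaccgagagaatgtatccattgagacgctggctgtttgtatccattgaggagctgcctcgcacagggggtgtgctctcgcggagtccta

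The *Dusp1* window held a full CRE with its first base 143 bases before the start site, and half-site matches 191, 143 and 140 bases before it, of which those at 143 and 140 lie within the full element. The *Dusp5* window held 2 CArG boxes, 82 and 72 bases before the start, and a half-site at 55 bases before it. *Dusp2* held a half-site at position 6 after the start and *Dusp6* held none of these motifs. Of the other 5 genes with a RefSeq window, *Spry2* had the ETS-type letters CCGGAA at position 34 after the start and *Spred2* a half-site 51 bases before it, and *Spry1*, *Spred1* and *Dusp10* had no match. Neither the AP-1 letters TGANTCA nor TATAAA were found in any of the 9 windows. Among 32851 mouse promoter windows of the same length, 1.79% held the CRE, 20.8% the half-site, 1.63% a CArG box, 14.9% CCGGAA, 7.81% TGANTCA and 13.6% TATAAA. These matches describe the letters of the windows and say nothing of what binds there. The RefSeq start of *Dusp10* lies 21079 bases from the first base of the gene in the deposited annotation, whereas those of *Dusp1* and *Dusp5* lie 47 and 36 bases from it and those of *Dusp2* and *Dusp6* coincide with it.

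Of the 4 inducible phosphatases of the nucleus, *Dusp1*, *Dusp2* and *Dusp5* fell and *Dusp4* was not tested. *Dusp1* (ENSMUSG00000024190, chr17:26505590-26508519, minus strand, 4 exons) encodes a phosphatase of p38, JNK and ERK that many cells induce within minutes of stimulation. It was at 72.5, 74.6 and 72.7 FPKM in CTRL and 38.6, 38.5 and 36.9 FPKM in cKO. The groups were far apart and the libraries of each group close together. The mean of 73.3 ± 1.21 FPKM in CTRL fell to 51.9% of that level in cKO (SD 0.957 FPKM, n = 3 each), a 1.93-fold lower level and a change of -0.93 (SE 0.030, adjusted p = 5.6e-06 by limma). From the lowest change upward, *Dusp1* ranked 109 of the 11552 tested genes.

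*Dusp5* (ENSMUSG00000034765, chr19:53529109-53542431, plus strand, 4 exons) encodes a nuclear phosphatase selective for ERK, and on the log2(FPKM + 1) scale it had the largest change among the feedback genes, whereas without a pseudocount that of *Dusp10* was larger. Its FPKM values were 20.4, 20.1 and 20.8 in CTRL and 8.77, 9.45 and 8.02 in cKO, resting on 875 to 1005 and 369 to 426 reads. No cKO library came near the CTRL range. The mean fell from 20.4 ± 0.338 to 8.74 ± 0.715 FPKM (SD, n = 3 each), 2.34-fold lower, with a change of -1.14 (SE 0.057, adjusted p = 2.9e-05 by limma), rank 54 from the lowest.

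*Dusp2* (ENSMUSG00000027368, chr2:127336159-127338376, plus strand, 4 exons), a nuclear phosphatase expressed mainly in hematopoietic cells, was as abundant as *Dusp1* in CTRL. It was at 71.1, 75.6 and 72.9 FPKM in CTRL and 51.9, 58.7 and 54.8 FPKM in cKO. The ranges did not overlap, but the cKO libraries were more spread than those of *Dusp1*. The mean fell from 73.2 ± 2.27 to 55.1 ± 3.40 FPKM (SD, n = 3 each), to 75.3% of control, with a change of -0.40 (SE 0.049, adjusted p = 0.00109 by limma). *Dusp4* (ENSMUSG00000031530, chr8:34807297-34819894, plus strand, 4 exons), the remaining inducible phosphatase of the nucleus, was low in both groups, with 28, 20 and 32 reads in CTRL and 23, 28 and 25 reads in cKO. Its 0.512 ± 0.0972 and 0.500 ± 0.0567 FPKM (SD, n = 3 each) gave no detectable difference at this depth, and without the filter its change was -0.01, with a 95% interval of -0.18 to 0.16.

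The cytoplasmic phosphatase *Dusp6* (ENSMUSG00000019960, chr10:99263231-99267489, plus strand, 3 exons), which acts on ERK with high selectivity, was the exception among the abundant phosphatase genes. Its FPKM values were 14.8, 14.5 and 15.4 in CTRL and 14.3, 14.4 and 13.5 in cKO. Every cKO library lay just below every CTRL library, yet the gap was small against the spread. The change of -0.079 (95% interval -0.17 to 0.017) did not pass the test (adjusted p = 0.164 by limma), and it passed in 0 of 18 alternative analyses. *Dusp10* (ENSMUSG00000039384, chr1:184013302-184075636, plus strand, 4 exons), whose product acts on p38 and JNK rather than on ERK, was a low transcript. It was at 1.29, 1.60 and 1.61 FPKM in CTRL (78, 86 and 94 reads) and at 0.842, 0.469 and 0.512 FPKM in cKO (48, 26 and 29 reads). The groups were separate, and the gene passed the filter through its CTRL level. The mean fell from 1.50 ± 0.183 to 0.608 ± 0.204 FPKM (SD, n = 3 each), with a change of -0.64 (SE 0.117, adjusted p = 0.00574 by limma). Since a pseudocount of 1 shrinks the change of a low gene, the log2 ratio of the mean FPKM values was -1.30, a 2.47-fold lower level. The span of *Dusp10* holds an antisense gene, *1700056E22Rik*, with 15, 29 and 12 reads in CTRL and 43, 19 and 23 in cKO, and whether the counting used strand is not given in the sources used here.

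**Figure D2:**
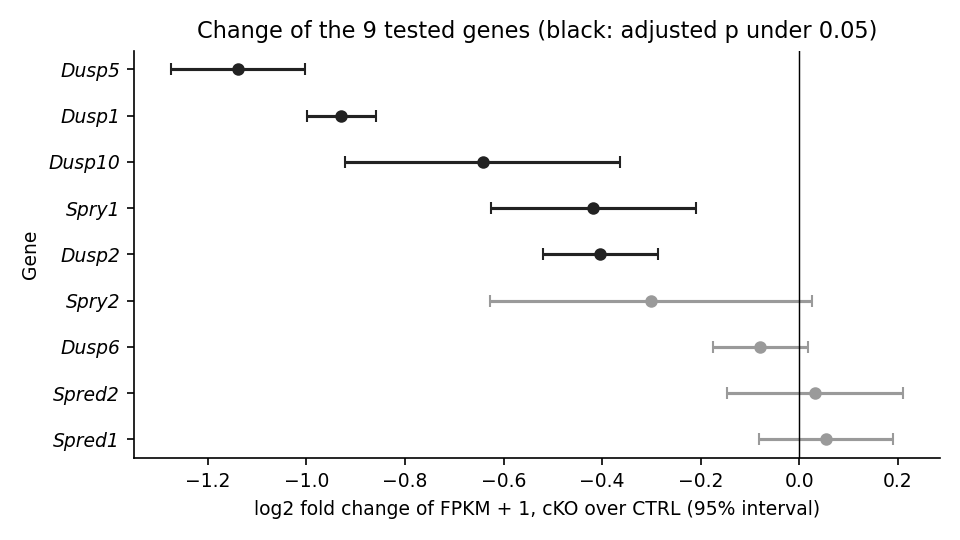
Difference between cKO and CTRL on the log2(FPKM + 1) scale for the 9 tested feedback genes, with 95% intervals (n = 3 libraries per group), a line at 0, and genes past the adjusted p of 0.05 by limma in black and others in grey. The intervals of *Dusp5*, *Dusp1*, *Dusp10*, *Spry1* and *Dusp2* lie below 0, and those of *Spry2*, *Dusp6*, *Spred2* and *Spred1* include 0.

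The Sprouty genes were low or moderate in level. *Spry1* (ENSMUSG00000037211, chr3:37639947-37644598, plus strand, 3 exons) was at 2.01, 1.85 and 1.85 FPKM in CTRL and 1.01, 1.40 and 1.13 FPKM in cKO. The 3 cKO libraries all lay below the CTRL range. The mean fell from 1.90 ± 0.0904 to 1.18 ± 0.198 FPKM (SD, n = 3 each), 1.61-fold lower, with a change of -0.42 (SE 0.087, adjusted p = 0.00971 by limma), and the log2 ratio of the means without a pseudocount was -0.69.

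*Spry2* (ENSMUSG00000022114, chr14:105891947-105896819, minus strand, 2 exons), whose product also binds the ubiquitin ligase Cbl, was at 5.57, 5.25 and 5.49 FPKM in CTRL and 3.22, 5.31 and 4.35 FPKM in cKO. The groups overlapped, because cKO replicate 2 lay within the CTRL range. The change of -0.30 (95% interval -0.63 to 0.03) did not pass the test (adjusted p = 0.126 by limma). Without cKO replicate 2 it was -0.44 and passed (adjusted p = 0.0252 by limma). Without cKO replicate 1 it was -0.15 and did not pass (adjusted p = 0.223 by limma). The change thus depended on single cKO libraries, and it passed in 1 of 17 alternative analyses. Summed over both Sprouty genes the level was 7.34 ± 0.235 FPKM in CTRL and 5.47 ± 1.24 FPKM in cKO (SD, n = 3 each).

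Neither SPRED gene passed the test. *Spred1* (ENSMUSG00000027351, chr2:117121374-117182279, plus strand, 7 exons) was at 4.33, 4.68 and 4.73 FPKM in CTRL and 4.51, 5.06 and 4.82 FPKM in cKO, with a change of 0.054 (95% interval -0.082 to 0.19, adjusted p = 0.490 by limma). *Spred2* (ENSMUSG00000045671, chr11:19924375-20024026, plus strand, 6 exons) was at 4.98, 4.59 and 4.35 FPKM in CTRL and 5.06, 5.01 and 4.25 FPKM in cKO, with a change of 0.032 (95% interval -0.15 to 0.21, adjusted p = 0.765 by limma). The groups overlapped for both genes, and neither interval reached the changes of *Dusp1*, *Dusp5*, *Dusp2* or *Spry1*. Neurofibromin, the partner of SPRED proteins, is encoded by *Nf1*, which was below the filter at 0.484 ± 0.033 FPKM in CTRL and 0.469 ± 0.0374 FPKM in cKO (SD, n = 3 each).

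FPKM is scaled by transcript length, so levels can be set side by side. In CTRL the order was *Dusp1*, *Dusp2*, *Dusp5*, *Dusp6*, *Spry2*, *Spred2*, *Spred1*, *Spry1*, *Dusp10* and *Dusp4*, and only the ranges of *Dusp1* and *Dusp2* and of *Spred2* and *Spred1* overlapped between neighbours. In cKO the order was *Dusp2*, *Dusp1*, *Dusp6*, *Dusp5*, *Spred1*, *Spred2*, *Spry2*, *Spry1*, *Dusp10* and *Dusp4*. *Spred1*, *Spred2* and *Spry2* then overlapped, as did *Dusp10* and *Dusp4*. *Dusp1* thus went from the level of *Dusp2* to below it, and *Dusp5* from above *Dusp6* to below it.

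The sum of the 10 genes was 197, 203 and 200.3 FPKM in CTRL and 129, 139 and 129 FPKM in cKO. Every cKO library was below every CTRL library, and the exact two-sided permutation test gave p = 0.1, the smallest value that 3 against 3 libraries allow. *Dusp1* and *Dusp2* together made up 73.1% of this sum in CTRL and 70.5% in cKO, so it largely follows those genes. The SPRED sum was 9.22 ± 0.120 FPKM in CTRL and 9.57 ± 0.505 FPKM in cKO (SD, n = 3 each, exact permutation p = 0.4).

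Ratios within a library, for 4 pairs chosen after their values were seen, showed how unevenly the genes changed. The nuclear to cytoplasmic ERK phosphatase ratio, *Dusp5* to *Dusp6*, was 1.38, 1.38 and 1.35 in CTRL and 0.611, 0.658 and 0.595 in cKO. The ratio of *Dusp1* to *Dusp6* was 4.92 ± 0.204 in CTRL and 2.70 ± 0.0299 in cKO, and that of *Dusp1* to *Dusp2* was 1.00 ± 0.0163 and 0.691 ± 0.0471 (SD, n = 3 each). The Sprouty to SPRED ratio was 0.796 ± 0.0264 in CTRL and 0.571 ± 0.115 in cKO. For all 4 ratios every cKO library was below every CTRL library, and the exact permutation p was 0.1, its smallest possible value.

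**Figure D3:**
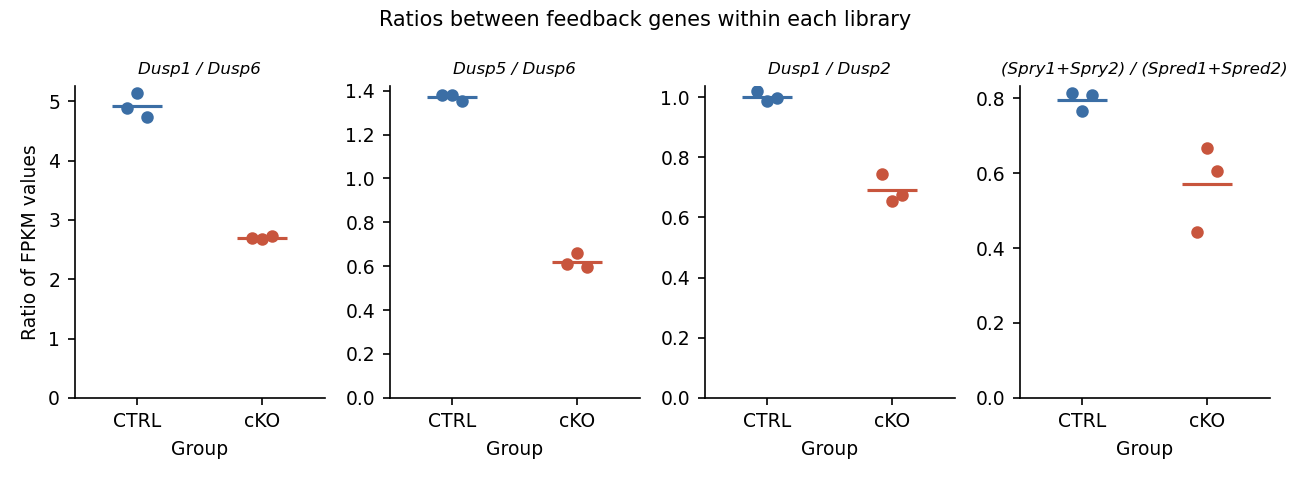
Ratio of FPKM values within each library for 4 pairs of feedback genes, by group (points, n = 3 libraries each, lines at the means). Each ratio was lower in every cKO library, and the *Dusp5* to *Dusp6* ratio went from above 1 to below 1.

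The spread between libraries was not the same for every gene. For *Spry2* the SD was 24.3% of the mean in cKO, where the counting error of its reads was 7.77%, and 3.07% in CTRL, where the counting error was 6.83%. *Dusp10* had an SD of 33.6% in cKO beside a counting error of 17.1%, and *Dusp2* one of 6.17% beside 2.21%. *Dusp1* and *Dusp6* varied about as much as counting allows in both groups. The SD exceeded the counting error for 9 of the 10 genes in cKO and 5 of 10 in CTRL, and with 3 libraries each SD is itself imprecise.

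**Figure D4:**
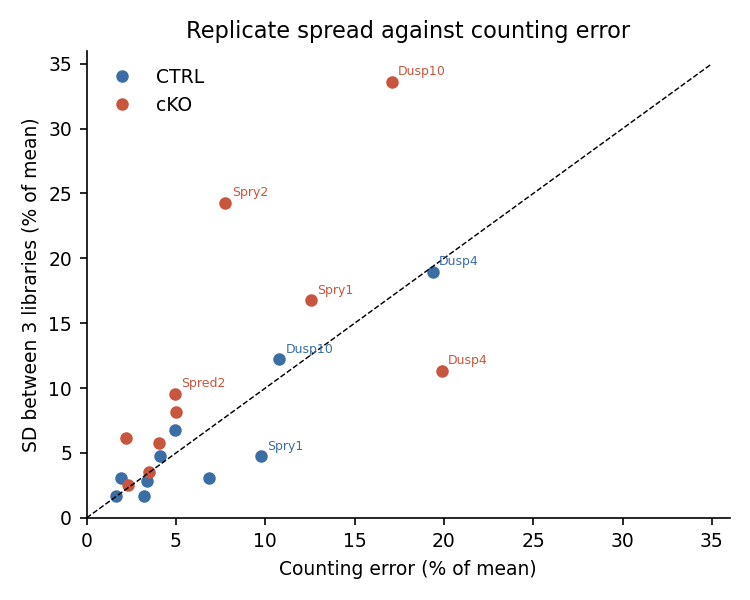
SD between libraries as a percentage of the mean against the counting error expected from the reads, for the 10 feedback genes in CTRL and cKO (n = 3 libraries each), with a line where both are equal and names for genes above 9% on either axis. *Spry2* and *Dusp10* in cKO stand farthest above the line.

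The genes whose profile over the 6 libraries was closest to that of *Dusp5*, the feedback gene with the largest change on the log2(FPKM + 1) scale, were *Gpc1*, *Zfp36* and *Gm3608*, by the mean absolute difference of centred log2(FPKM + 1) values (0.0271, 0.0402 and 0.0503). *Gpc1*, which encodes the proteoglycan glypican-1, was at 12.2 FPKM in CTRL and 5.02 FPKM in cKO. *Zfp36*, which encodes the mRNA-destabilising protein tristetraprolin, was at 63.2 and 27.1 FPKM.

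The other genes of the cascade were taken from 10 lists of 111 genes, of which 81 were tested. Among these, 30 were lower and 6 higher in cKO by limma, with a median change of -0.11, where 20.6% of all tested genes were lower and 19.9% higher. With the trend with gene length removed, 24 were lower and 12 higher. The counts of the single lists below rest on 2 to 12 tested genes each and are to be read beside these shares of all genes. Of the remaining MAP kinase phosphatases, *Dusp7* fell from 10.5 ± 0.302 to 8.78 ± 0.578 FPKM (SD, n = 3 each, adjusted p = 0.0125), *Dusp9* did not pass (adjusted p = 0.561), and *Dusp8* and *Dusp16* were below the filter. *Dusp16* had 83, 81 and 68 reads in CTRL and 125, 98 and 108 reads in cKO, and its level was higher in every cKO library. *Dusp9*, *Dusp16*, *Spry4*, *Rasgrp1*, *Rasgrp3*, *Gab3*, *Srf* and *Myc* are named here after their values were seen. Among 6 tested atypical dual specificity phosphatases 5 did not pass and 1 was higher, *Dusp3*, a phosphatase without a MAP kinase binding domain, at 0.827 FPKM in CTRL and 1.89 FPKM in cKO (change 0.66, adjusted p = 0.0017), which passed the filter only through its cKO level. None of *Spry3*, *Spry4* and *Spred3* reached the filter. *Spry4* had 6, 18 and 10 reads in CTRL and 23, 26 and 37 reads in cKO, so that every cKO library lay above every CTRL library at this low level.

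Of 11 tested RAS, RAF, MEK and ERK genes, 3 fell and 1 rose. *Map2k1*, which encodes MEK1, fell from 21.5 to 17.9 FPKM (change -0.26, adjusted p = 0.00707), and *Mapk3*, which encodes ERK1, from 56.1 to 46.9 FPKM (change -0.25, adjusted p = 0.00895). The gene that rose, *Hras*, went from 14.5 to 17.7 FPKM (change 0.27, adjusted p = 0.0389), a call that was lost in 9 of 18 alternative analyses. Among 11 tested adaptors and RAS exchange factors 6 fell and the others did not pass, and the call of 1 that fell, *Gab1*, was lost in 11 of 17 alternative analyses. Of the genes of this list below the filter, *Rasgrp1* had 5, 2 and 5 reads in CTRL and 42, 13 and 36 in cKO, and *Rasgrp3* and *Gab3* also lay higher in every cKO library. Among the 6 tested genes of this list that fell, 2 had the largest changes on the log2(FPKM + 1) scale. They were the docking protein gene *Gab2* (5.97 to 3.86 FPKM, change -0.52) and the exchange factor gene *Rasgrp2* (18.2 to 14.4 FPKM, change -0.32). Of 9 tested RAS GTPase-activating proteins and other restraints 4 fell and the others did not pass. Those that fell included the ubiquitin ligase gene *Cbl* (4.94 to 3.62 FPKM, change -0.36) and the GTPase-activating protein gene *Rasa3* (22.6 to 17.7 FPKM, change -0.34). The call of *Cblb*, another that fell, was lost in 7 of 17 alternative analyses.

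On the p38 and JNK side, where *Dusp1* and *Dusp10* act, 4 of 12 tested kinase genes fell and the others did not pass. *Map2k6*, which encodes a p38 activator, fell from 4.25 to 2.41 FPKM (change -0.63), and the p38 target kinase genes *Mapkapk3* and *Mapkapk2* from 48.6 to 32.5 FPKM and from 162 to 118 FPKM. Of 10 tested ERK effector genes 3 fell, a share near the 20.6% of all tested genes, and the others did not pass. Among those that fell was *Elk3*, a partner of serum response factor (14.1 to 10.5 FPKM, change -0.40). *Srf*, which encodes serum response factor, did not pass (change -0.08, adjusted p = 0.227).

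Among 9 tested transcripts that respond to ERK, other than the feedback genes, 4 fell and 1 rose. *Egr1* fell from 33.1 to 12.7 FPKM (change -1.31), *Fos* from 115 to 62.1 FPKM (change -0.88) and *Ier2* from 170 to 102 FPKM (change -0.73), all transcription regulators of the immediate early class. *Etv5*, an ETS factor gene, rose from 2.33 to 4.37 FPKM (change 0.69, adjusted p = 0.00203), and *Myc* did not pass (adjusted p = 0.92). Of 11 tested receptors upstream of RAS, 5 fell and 3 rose. The myeloid receptor genes *Csf1r* (change -1.46) and *Csf3r* (change -0.45) fell, whereas the erythropoietin receptor gene *Epor* (change 0.60) and *Flt3* (change 0.58) rose.

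**Figure D5:**
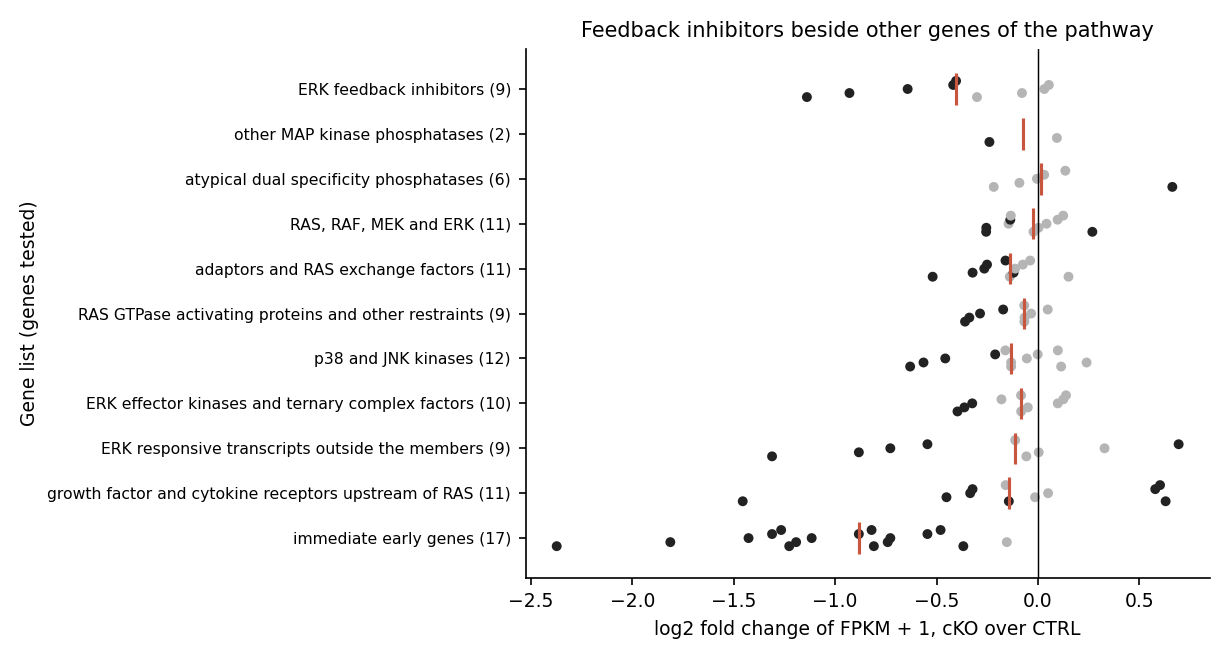
Change between cKO and CTRL on the log2(FPKM + 1) scale for each tested gene of the feedback set, of 9 cascade lists and of the immediate early genes (points, n = 3 libraries per group), with genes past the adjusted p of 0.05 by limma in black, others in grey, red marks at the median of each list and a line at 0. The feedback genes have a median of -0.40, the immediate early genes one of -0.88, and the receptors are spread to both sides.

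Immediate early genes, a class with which *Dusp1* is usually counted, were lower beside the feedback genes. Of 17 tested, 16 were lower and 1 did not pass (median change -0.88), with a summed level of 901 to 928 FPKM in CTRL and 452 to 474 FPKM in cKO. This list shares *Egr1*, *Fos*, *Ier2* and *Ier3* with the transcripts above that respond to ERK, and it includes *Zfp36*. Of 8 heat shock genes 4 were lower and 2 higher, with sums of 1393 to 1418 and 1348 to 1396 FPKM. The part of this shift in the lower *Dusp1* and *Dusp5* levels was not tested.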

How the data were processed

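LSK cells of 3 CTRL and 3 cKO cell sets were profiled by RNA-seq, and groups were taken from the sample labels. The authors deposited 1 table of FPKM values per gene, made with alignment by HISAT2 2.0.5 to mm10 according to the submitters' processing notes. The counting program, its strand setting and the annotation release are not given in the sources used here. FPKM multiplied by gene length gave whole reads for 100% of values under 1000 reads (tolerance 0.02), so depth is known: 3 reads on a gene of 1 kb correspond to 0.151 to 0.17 FPKM. Intervals from reads cover counting error only.

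The log2(FPKM + 1) values of the 11552 genes averaging 1 FPKM or more were compared between groups with limma 3.58.1 in R 4.3.3 (moderated test with an intensity trend, two-sided, Benjamini-Hochberg adjustment over all tested genes, threshold 0.05). Single sums and ratios were compared by an exact two-sided permutation test. Promoter windows came from a RefSeq table in GRCm38.p6, in which 9 of the 10 genes matched. The fit was tested on simulated data. Alternatives were other pseudocounts and filters, rescaling, voom on recovered reads, a replicate block, leaving out each library, and, chosen after seeing the data, removal of trends with GC content and gene length.

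The feedback genes and all lists were chosen with earlier results of these data known. Named genes were the feedback genes, *Myh9*, *Mapk3*, *Nf1*, at most 3 genes per direction with the largest changes among those called in each cascade list, and the 3 closest profiles to the feedback gene of largest change. Some genes that this rule names are not reported here. Tables were joined in Python 3.11.15 (pandas 2.3.3).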

Additional observations from a re-analysis of the deposited data

How the results depend on the processing

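The 5 lower calls of *Dusp1*, *Dusp2*, *Dusp5*, *Dusp10* and *Spry1* passed in every alternative in which each was tested (17 or 18), with changes of -0.97 to -0.91, -0.47 to -0.36, -1.22 to -1.08, -1.30 to -0.58 and -0.68 to -0.36. With a filter of 5 FPKM only 4 feedback genes were tested, 3 of them were lower, and the median change was -0.67. Leaving out each library in turn gave 5 to 6 lower and 0 higher feedback genes, medians of -0.45 to -0.36, 24 to 29 lower and 5 to 7 higher cascade genes, and a *Myh9* change of -0.31 to -0.22. The higher count among cascade genes was 11 with voom, 12 with the length trend removed and 11 with GC and length trends removed, beside 6, and the cause was not tested. *Spred2* ranged from -0.0052 to 0.099 with 1 library left out and changed sign without CTRL replicate 3 (-0.0052, adjusted p = 0.970) and without cKO replicate 1 (-0.0051, adjusted p = 0.972). Same-numbered libraries did not deviate together over all tested genes (correlations of -0.0046, -0.011 and -0.026). These correlations cannot show whether such libraries were handled together. A replicate block gave 5 lower and 0 higher feedback genes with a median of -0.40, and 26 lower and 5 higher cascade genes. *Dusp4*, *Dusp10* and *Spry1* rest on fewer than 120 reads per library. The list of cascade genes lost calls of *Hras*, *Gab1* and *Cblb*, among others, in some alternatives.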
